A study of Homo sapiens with 8 samples.

Results

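A set of 9 genes that act as feedback brakes on the ERK pathway was examined: 4 dual-specificity phosphatases (DUSP1, DUSP4, DUSP5 and DUSP6), 3 Sprouty genes (SPRY1, SPRY2 and SPRY4) and 2 Sprouty-related genes (SPRED1 and SPRED2). They were taken by symbol from a table of 23346 genes, and all 9 were present. RNA had been sequenced from 8 replicates of hCMEC/D3, a human brain capillary endothelial line immortalised with telomerase and the SV40 large T antigen and grown to model the blood-brain barrier in vitro. The replicates formed 1 group, and the labels named no treatment, genotype or time point, so the values describe how high these genes were and how far they differed between libraries. The labels did not say whether the replicates were separate cultures, and p-values therefore measure only the spread between these samples, which may be technical.

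ERK is the last kinase of the Ras, RAF and MEK cascade, which relays growth factor receptor signals to the nucleus. The cascade induces its own inhibitors: dual-specificity phosphatases remove phosphate from the threonine and tyrosine of the ERK activation loop, while Sprouty and SPRED proteins act further up, between the receptor and RAF. In endothelium the pathway lies downstream of the VEGF and FGF receptors, and Sprouty proteins are known to restrain branching of vessels. Transcripts of several of these genes are short-lived and are used as readouts of pathway output.

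Promoter sequences from RefSeq (GRCh38.p14) were matched for 7 of the 9 genes, with 11 promoters in all. DUSP4 and DUSP5 had no entry. DUSP1 and DUSP6 are shown because their patterns were the most alike of the 9 on the authors' normalised values, and SPRY4 because its levels had the widest range. Each run is the 250 bases before the start, 5′ to 3′ on the gene's strand, and capitals mark the cyclic AMP response element TGACGTCA and its core TGACG on either strand.
DUSP1, chromosome 5, 172771196 to 172771445, minus strand: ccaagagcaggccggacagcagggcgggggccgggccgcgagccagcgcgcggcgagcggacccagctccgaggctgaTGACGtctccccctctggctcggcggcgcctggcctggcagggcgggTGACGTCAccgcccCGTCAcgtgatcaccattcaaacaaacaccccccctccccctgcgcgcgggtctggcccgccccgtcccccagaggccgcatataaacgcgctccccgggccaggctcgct
DUSP6, chromosome 12, 89352502 to 89352751, minus strand: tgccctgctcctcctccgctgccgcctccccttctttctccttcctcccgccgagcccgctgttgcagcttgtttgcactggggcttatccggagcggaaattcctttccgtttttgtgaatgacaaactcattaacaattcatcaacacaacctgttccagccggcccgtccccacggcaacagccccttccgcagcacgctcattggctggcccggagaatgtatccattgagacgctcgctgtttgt
SPRY4, chromosome 5, 142324248 to 142324497, minus strand: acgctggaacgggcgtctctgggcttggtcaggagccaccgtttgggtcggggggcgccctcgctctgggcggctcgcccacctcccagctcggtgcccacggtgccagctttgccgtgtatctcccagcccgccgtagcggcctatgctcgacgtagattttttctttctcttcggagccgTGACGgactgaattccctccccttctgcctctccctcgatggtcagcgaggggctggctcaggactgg

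The full element TGACGTCA was found in 1 of the 11 promoters, that of DUSP1, against 1.65% of the 35116 promoters in the table. Its core TGACG, which also lies within the full element, was found in 3 of 11 (DUSP1, SPRY4 and 1 of the 3 SPRY2 promoters), against 21.2% of all. The AP-1 motif TGANTCA (6.57% of all promoters), the ETS motif CCGGAAGT (3.42%) and the CArG box (1.16%), each searched on both strands, had 0 matches in the 11 windows. These are matches of letters in short windows and not measured binding.

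In the canonical transcripts of GENCODE 44 on GRCh37, the AU-rich nonamer TTATTTATT, a letter pattern of short-lived mRNAs, occurred in the 3′ untranslated regions of 2 of the 9 genes, DUSP1 and DUSP4, against 8.63% of 18453 genes. One match in DUSP1 starts at base 101 of this region, and it is shown with the nonamer in capitals.
DUSP1 AU-rich site: gctggtccTTATTTATTtaacttca
The shorter pentamer ATTTA had a median of 4 copies in the 9 genes. Among the 10699 genes whose 3′ untranslated regions fell in the same length range, the median was also 4, and 10.65% had the nonamer.

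Total counts were 69388544 to 90205244 per library, and 0 of the 186768 counts in the table were odd. Each of the 28 pairs of libraries differed by more than sampling noise (chi-square per degree of freedom 5.86 to 489), so no pair was merged as a library deposited again. This does not show that they came from separate cultures. All 8 endothelial markers were detected at the level used here, at least 1 CPM (count per 1000000 of the scaled library) in all 8 libraries, whereas 0 of 5 astrocyte and 0 of 5 microglia markers were, with AQP4 and P2RY12 at 0 counts in every library (a 0 allows up to 0.0665 to 0.0880 CPM). Detected markers of other types were 4 of 6 mural (summed level 45.4 to 70.4 CPM), 3 of 5 neuronal (97.2 to 135 CPM) and 1 of 5 epithelial (4.10 to 5.30 CPM), against 1622 to 3147 CPM for the endothelial list. The libraries differed in how levels changed with transcript length. A length slope was therefore taken for each library, the log2 deviation from the gene mean per doubling of transcript length. It was between 0.09 and 0.15 in replicates 1, 3, 4, 5 and 6 and negative in replicates 7 (-0.11), 2 (-0.22) and 8 (-0.34), where long transcripts were low. These 3 libraries also had the highest total counts, 82013826 or more.

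All 9 genes were detected. DUSP1 was the highest, both in CPM and in RPKM (CPM per kilobase of the canonical transcript), and the 4 phosphatases spanned the whole range of the set, since DUSP4 was the lowest. In bulk RNA of this kind, fewer expressing cells and less RNA per cell cannot be told apart. Gene coordinates are given on GRCh37, 1-based, and 0 of the 9 genes overlapped another gene of the table.

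DUSP1 encodes a nuclear phosphatase that acts on p38 and JNK as well as ERK and is itself an immediate early gene (chromosome 5, 172195093 to 172198203, minus strand, 4 exons, transcript of 2013 nt). Its levels in replicates 1 to 8 were 274, 276, 385.5, 375, 233, 341.5, 164 and 247 CPM, a mean of 287 ± 75.9 (SD, n = 8). Replicates 3, 4 and 6 were the highest and replicate 7 was the lowest, a range of 2.35-fold. The level per length was 142.5 ± 37.7 RPKM, above that of 95.9% of the 11591 detected genes that had a length.

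DUSP5 encodes a nuclear phosphatase that is specific for ERK (chromosome 10, 112257625 to 112271302, plus strand, 4 exons, 2477 nt). It had 105, 229.7, 147, 163, 175, 168, 111 and 89.7 CPM in replicates 1 to 8, a mean of 149 ± 45.7 CPM and 60.01 ± 18.5 RPKM (SD, n = 8). Replicate 2 stood above the others, and replicates 8, 1 and 7 were the lowest.

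DUSP6, the cytoplasmic ERK phosphatase, lies on chromosome 12 (89741837 to 89746296, minus strand, 3 exons, 3627 nt). It had 160.4, 124, 181, 182, 115, 138, 80.45 and 71.3 CPM in replicates 1 to 8, a mean of 131.5 ± 42.2 CPM and 36.3 ± 11.6 RPKM (SD, n = 8). As with DUSP1, replicates 3 and 4 were the highest. Replicates 8 and 7 were the lowest.

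DUSP4, a nuclear phosphatase related to DUSP1, was low and even (chromosome 8, 29190579 to 29208267, minus strand, 4 exons, 5553 nt). Its levels were 12.4, 16.1, 14.7, 14.6, 16.35, 13.8, 11.5 and 12.9 CPM in replicates 1 to 8, a mean of 14.0 ± 1.73 CPM and 2.53 ± 0.312 RPKM (SD, n = 8). Its lowest count, 842, carried a counting error of 4.87%, taken on halved counts, the largest of the 9 genes. Of the summed RPKM of the 4 phosphatases, DUSP1 made up 58.9% ± 5.76, DUSP5 25.1% ± 6.22, DUSP6 14.9% ± 2.67 and DUSP4 1.09% ± 0.216 (SD, n = 8). DUSP1 thus led this sum in every library, with a lowest share of 51.4% in replicate 2.

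The Sprouty proteins are membrane-associated inhibitors that bind adaptors such as GRB2 and the ubiquitin ligase CBL. SPRY2 was the highest and the most even of the 3 (chromosome 13, 80910112 to 80915086, minus strand, 2 exons, 2286 nt). It had 53.15, 49.4, 54.5, 62.65, 54.2, 63.4, 49.3 and 43.6 CPM in replicates 1 to 8, a mean of 53.8 ± 6.72 CPM and 23.5 ± 2.94 RPKM (SD, n = 8).

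SPRY1 had 67.9, 41.2, 48.0, 55.3, 24.9, 41.2, 29.8 and 43.6 CPM in replicates 1 to 8, a mean of 43.99 ± 13.6 CPM and 16.9 ± 5.23 RPKM (SD, n = 8; chromosome 4, 124317956 to 124324909, plus strand, 3 exons, 2603 nt). Replicate 1 was the highest and replicate 5 the lowest, a range of 2.72-fold.

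SPRY4 had the widest range of the 9 genes, 3.99-fold (chromosome 5, 141689992 to 141704620, minus strand, 2 exons, 4904 nt). Its levels were 39.8, 39.2, 40.4, 61.3, 68.3, 66.8, 46.4 and 17.15 CPM in replicates 1 to 8, a mean of 47.4 ± 17.3 CPM and 9.67 ± 3.53 RPKM (SD, n = 8). Replicates 4, 5 and 6 were high, whereas SPRY1 was high in replicate 4 but below its mean in 5 and 6, and replicate 8 was by far the lowest. In that library SPRY4 made up 8.89% of the summed Sprouty RPKM, against 29.5% in replicate 5.

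The SPRED proteins carry a Sprouty domain and bind neurofibromin, the Ras inactivator. SPRED1 had 41.6, 23.5, 46.6, 40.2, 42.6, 41.4, 35.1 and 21.0 CPM in replicates 1 to 8, a mean of 36.5 ± 9.38 CPM and 5.02 ± 1.29 RPKM (SD, n = 8; chromosome 15, 38545052 to 38649450, plus strand, 7 exons). Its transcript of 7270 nt was the longest of the 9, and it was low in replicates 8 and 2. SPRED2 had 19.7, 14.85, 19.4, 17.7, 20.2, 18.5, 16.3 and 12.4 CPM, a mean of 17.4 ± 2.705 CPM and 3.85 ± 0.5985 RPKM (SD, n = 8; chromosome 2, 65537985 to 65659656, minus strand, 6 exons, 4519 nt). It was lowest in the same 2 libraries as SPRED1.

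**Figure D1:**
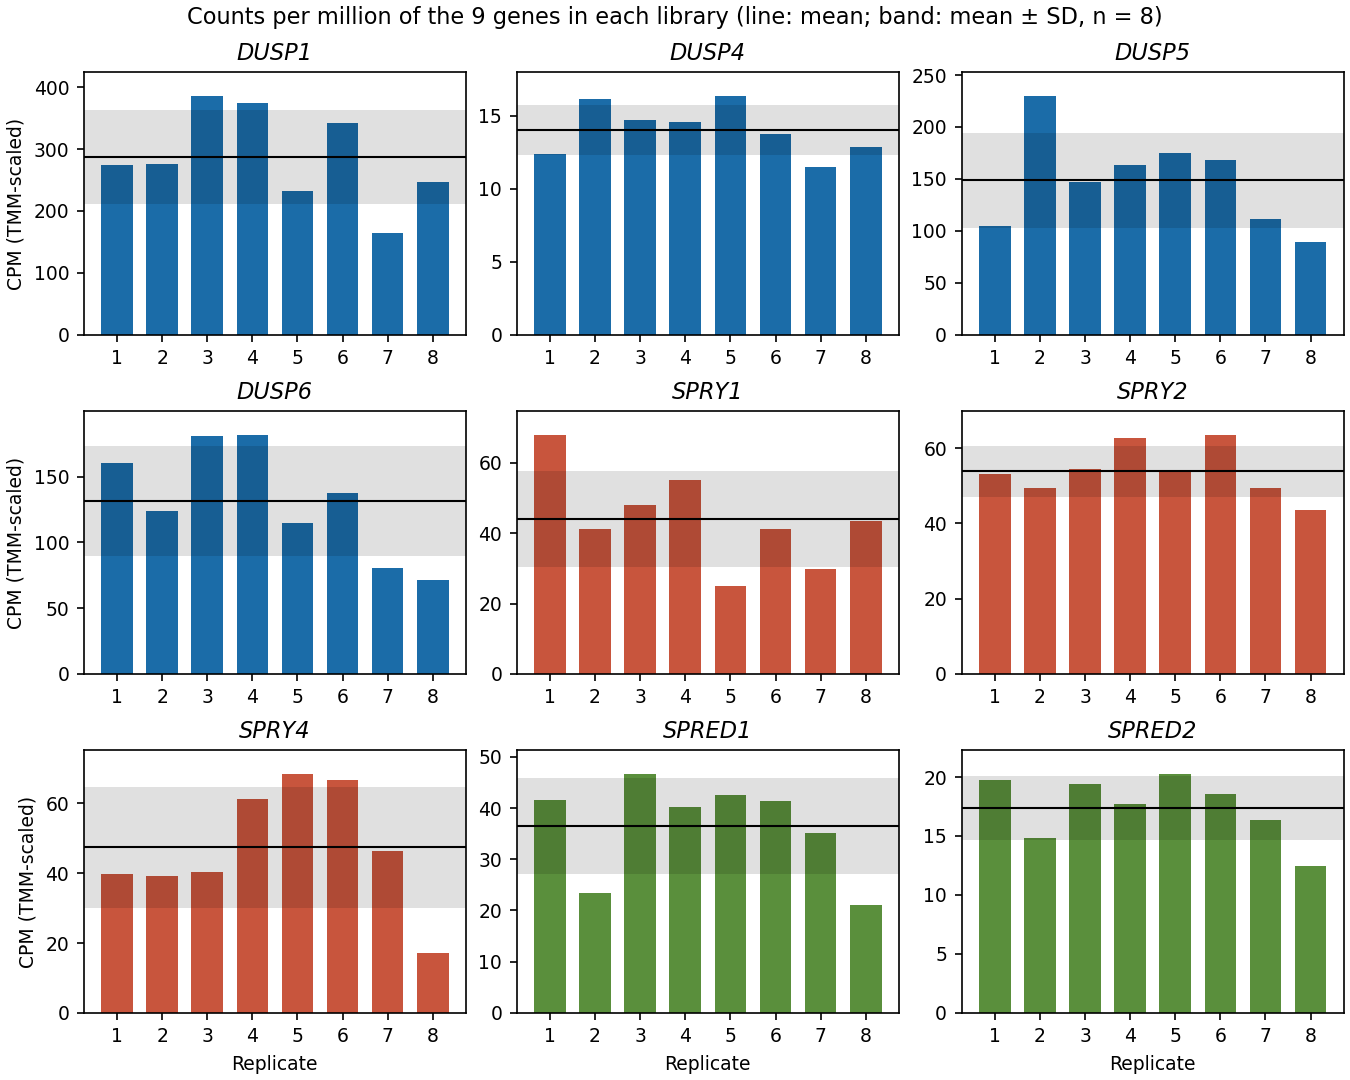
TMM-scaled CPM (y axis, linear from 0) of the 9 genes in replicates 1 to 8 (x axis), with the mean as a line and the mean ± SD as a band (n = 8). DUSP1 ranges from 164 to 385.5 CPM and SPRY4 from 17.15 to 68.3 CPM, whereas DUSP4 and SPRY2 stay within 1.42-fold and 1.45-fold.

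The order of mean RPKM was DUSP1, DUSP5, DUSP6, SPRY2, SPRY1, SPRY4, SPRED1, SPRED2 and DUSP4. The first 5 lay above the median of detected genes, 11.3 RPKM, and the other 4 below it. With summed exon lengths SPRY1 had 11.1 RPKM. The median was not computed with those lengths, so the place of SPRY1 against it was not settled there. All 36 pairs were compared within libraries as differences of log2(RPKM + 0.1) by exact permutation of their signs over the 8 libraries (two-sided), and p-values were adjusted over the 36. All 36 differed at an adjusted p under 0.05, and in 32 of them the sign was the same in 8 of 8 libraries. The smallest p this test can give is 0.00781.

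The other 4 pairs were neighbours in this order, each with 1 library against the direction. DUSP5 exceeded DUSP6 by 0.74 ± 0.50 in 7 of 8 libraries (exact permutation p = 0.0156, adjusted p = 0.0161), but on the authors' normalised values by only 0.27 ± 0.44 in 6 of 8 (adjusted p = 0.121, exact permutation test), so their order was not resolved on that scale. SPRY2 exceeded SPRY1 by 0.53 ± 0.46 in 7 of 8 libraries (exact permutation p = 0.0156, adjusted p = 0.0161). SPRY1 exceeded SPRY4 by 0.84 ± 0.87 in 7 of 8 (exact permutation p = 0.0391, adjusted p = 0.0391), a difference no larger than its own SD. It failed the threshold with summed exon lengths (0.65, adjusted p = 0.0703), on the authors' normalised values (0.53, adjusted p = 0.156) and when any of replicates 1, 2, 3, 4 or 8 was left out (adjusted p = 0.0781, exact permutation test). SPRED1 exceeded SPRED2 by 0.34 ± 0.21 in 7 of 8 libraries (exact permutation p = 0.0156, adjusted p = 0.0161).

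**Figure D2:**
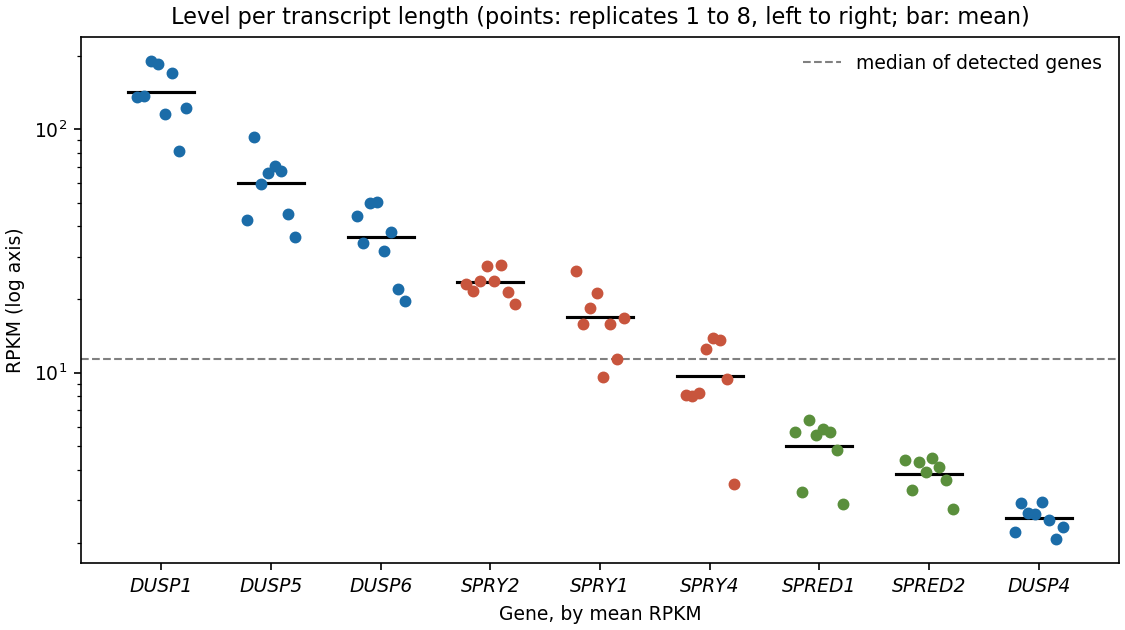
Level per transcript length (RPKM, log axis) of the 9 genes in order of their mean, with 1 point per replicate and the mean as a bar. The dashed line is the median of detected genes, 11.3 RPKM. The ranges of each gene and its neighbour overlap, those of SPRY1 and SPRY4 among them.

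Replicate variation was then set against that of genes of the same abundance. All 11980 detected genes were fitted in edgeR, and the fit of each gene was tested against the trend of dispersion with abundance. With an intercept alone, 0 of the 9 genes varied more than the trend at an adjusted p under 0.05, where 4.66% of all genes did. At an unadjusted p under 0.05 there were 2, SPRY4 (edgeR adjusted p = 0.0595) and DUSP6 (edgeR adjusted p = 0.338), where 13.1% of all genes passed that threshold. SPRY4 passed without replicate 2 (edgeR adjusted p = 0.0266). With the DESeq2 fitted trend in the same test the count was 6 of 9, but 23.5% of all genes then passed.

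That trend includes the differences between libraries in the length slope. When the slope was a term in the model, the trend at the abundance of these genes fell from between 23.2% and 25.5% to between 8.66% and 11.5% (biological coefficient of variation). In that fit 5 of the 9 genes varied more than the trend, where 4.17% of all genes did. They were DUSP1 (gene-wise coefficient 20.2%, edgeR adjusted p = 1.37e-06), DUSP5 (26.1%, edgeR adjusted p = 5.15e-14), DUSP6 (17.9%, edgeR adjusted p = 4.77e-05), SPRY1 (25.45%, edgeR adjusted p = 4.02e-10) and SPRY4 (24.7%, edgeR adjusted p = 9.65e-10). The remaining 4 lay near the trend: DUSP4 at 12.4%, SPRY2 at 7.91%, SPRED1 at 9.16% and SPRED2 at 8.11%, each with an edgeR adjusted p of 1. The count was 5 without any one of the 8 libraries, with DESeq2 size factors, on halved counts, with a minimum of 10 counts, and with total counts as a second covariate. These added checks were chosen after the data were seen.

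**Figure D3:**
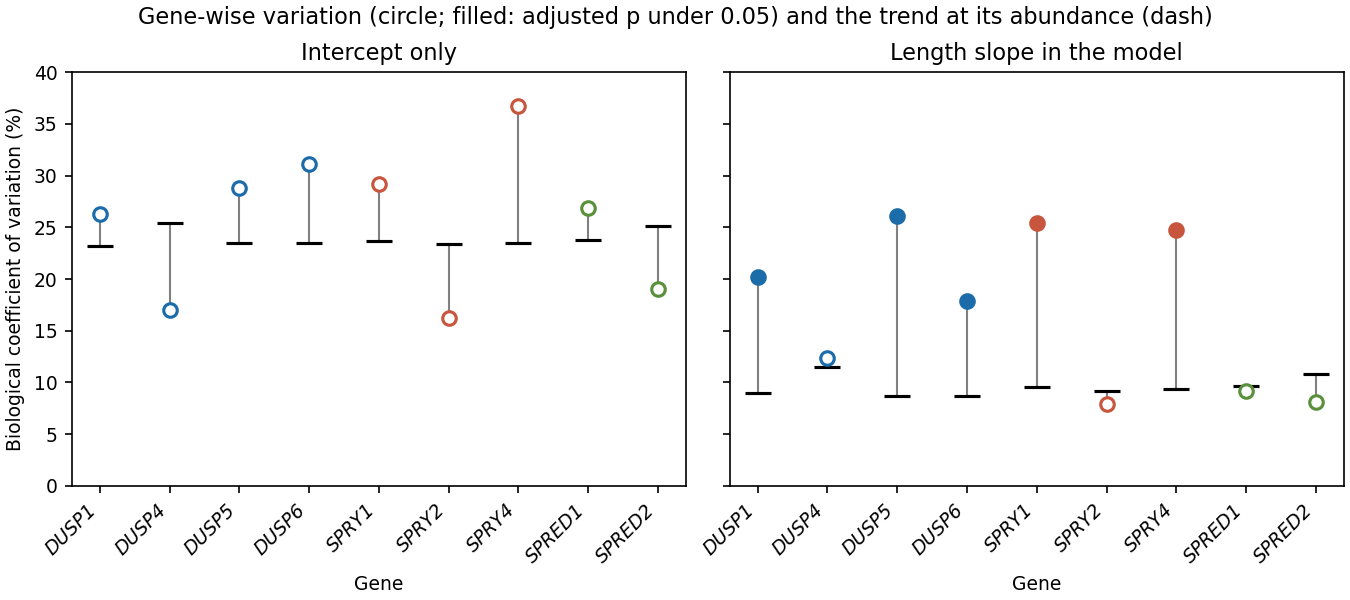
Biological coefficient of variation in percent (y axis) of each gene (circle) and of the trend at its abundance (dash), with an intercept only (left) and with the length slope in the model (right). Filled circles have an edgeR adjusted p under 0.05: 0 on the left and 5 on the right.

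On the authors' normalised values, which adjust each library for length and GC content, the same 5 genes had the widest spread of the 9. The SD over the 8 libraries was 0.60 for SPRY4, 0.57 for DUSP1, 0.54 for DUSP5, 0.53 for DUSP6 and 0.44 for SPRY1 (log2). Each of these exceeded the SD of at least 93.9% of detected genes. DUSP4 had 0.25, SPRY2 0.19, SPRED2 0.16 and SPRED1 0.11, where the median of detected genes was 0.16. In the same order, these exceeded the SD of 74.7%, 59.1%, 48.8% and 24.6% of detected genes. These shares are over detected genes of every abundance. Some of the normalised values still moved with the length slope. For the 5 genes r with it was 0.69 for SPRY4, 0.79 for DUSP1, 0.56 for DUSP5, 0.82 for DUSP6 and 0.05 for SPRY1.

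The libraries that stood out were shared by some of the genes and differed for others. After the length slope was removed, DUSP5 was highest in replicate 2 (a residual of 0.80 on the log2 scale) and lowest in replicate 1 (-0.52). DUSP1 was highest in replicate 3 (0.31) and lowest in replicate 7 (-0.65), and DUSP6 was highest in replicate 2 (0.46) and also lowest in replicate 7 (-0.41). SPRY1 was highest in replicate 1 (0.60) and lowest in replicate 5 (-0.80). SPRY4 showed the opposite order in those libraries, at -0.51 in replicate 1 and 0.42 in replicate 5, its highest.

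**Figure D4:**
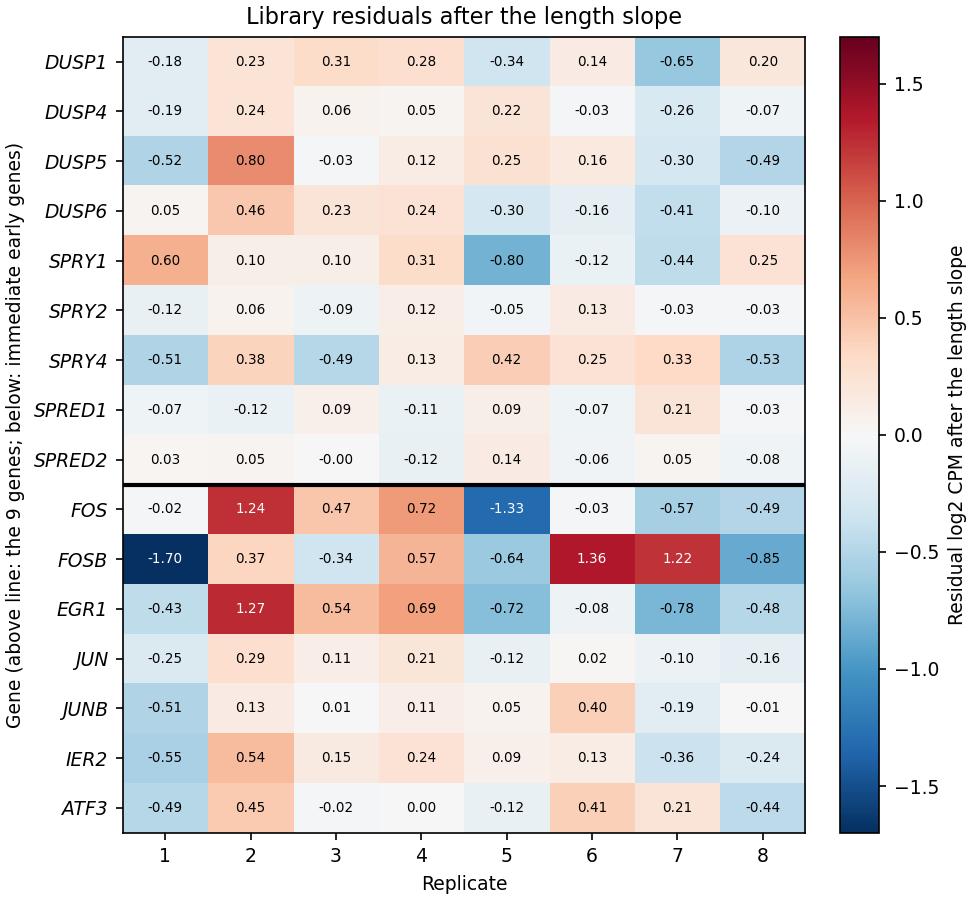
Residual log2 CPM (colour and printed value) of the 9 genes, above the line, and 7 immediate early genes, below it, in replicates 1 to 8 after a least-squares fit on the length slope. SPRY1 and SPRY4 have opposite signs in replicates 1 and 5. The residuals of DUSP4, DUSP5, DUSP6, FOS, EGR1, JUN, IER2 and ATF3 are all highest in replicate 2. They are relative to the fitted line. On CPM, replicate 2 was the highest for DUSP5 and IER2 but below the mean for DUSP6, EGR1, FOS and JUN.

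How each gene followed the length slope was tested with an edgeR quasi-likelihood model over all detected genes. The slope is made from the same counts, so this describes the libraries. Of the 9 genes, 5 were higher with the slope and 0 lower, where 33.3% of all genes were higher, 39.4% lower and 72.8% changed in either direction. The share of the 9 called in either direction was therefore below that of all genes, while the share higher with the slope was above it. Neither difference was tested. SPRED1 rose by 0.21 ± 0.02 (log2 per 0.1 of slope ± SE, edgeR adjusted p = 1.94e-05) and SPRED2 by 0.12 ± 0.02 (edgeR adjusted p = 4.03e-04). SPRY4 rose by 0.24 ± 0.08 (edgeR adjusted p = 0.0148), DUSP6 by 0.20 ± 0.05 (edgeR adjusted p = 0.00370) and SPRY2 by 0.08 ± 0.02 (edgeR adjusted p = 0.00367). Without replicate 8 only SPRED1 and SPRED2 passed, and the SPRY4 value was 0.11 (edgeR adjusted p = 0.2745). DUSP1 (0.11 ± 0.05), SPRY1 (0.07 ± 0.07), DUSP5 (0.02 ± 0.07) and DUSP4 (0.01 ± 0.03) did not pass. Without replicate 2 DUSP5 did (0.16, edgeR adjusted p = 0.0181).

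On the authors' normalised values 4 of the 9 followed the slope in limma's test, where 40.9% of all genes did (18.4% higher with it and 22.4% lower). DUSP1 (0.23 ± 0.06, limma adjusted p = 0.0182), DUSP6 (0.22 ± 0.05, adjusted p = 0.0105) and SPRED2 (0.07 ± 0.02, adjusted p = 0.0127) were higher with it, and DUSP4 was lower (-0.095 ± 0.030, adjusted p = 0.0320). SPRED1, the longest transcript, did not pass there (-0.027 ± 0.019, limma adjusted p = 0.286). The 3 libraries with negative slopes were also the deepest, and the part of depth in these values was not tested.

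**Figure D5:**
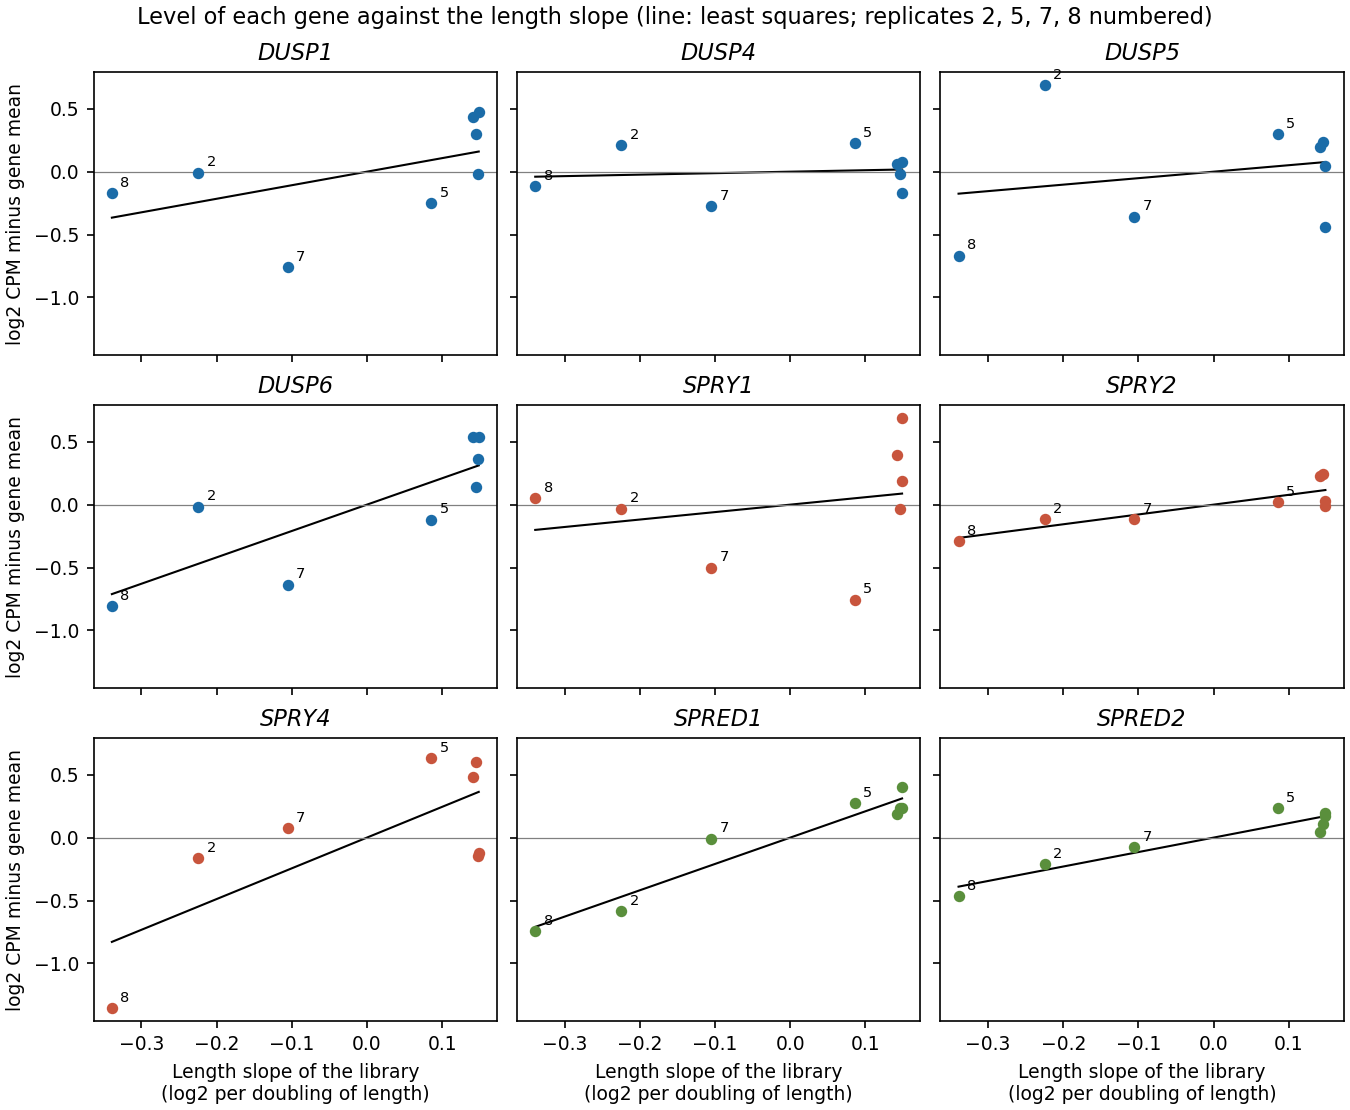
Log2 CPM minus the gene's mean (y axis) against the length slope of the library (x axis, log2 per doubling of transcript length) for the 9 genes, 1 point per library with a least-squares line. SPRED1 and SPRED2 lie close to their lines, while DUSP5 in replicate 2 and SPRY1 in replicate 5 lie far from theirs.

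Whether the genes varied together was examined over the 8 libraries for all 36 pairs, with exact two-sided permutation of the libraries and adjustment over the 36. On log2(CPM + 0.1) the median r was 0.45, and 33 of the 36 were positive, while the median over all pairs of detected genes was 0.01. One pair passed, SPRED1 with SPRED2 (r = 0.951, exact p = 5.46e-04, adjusted p = 0.0196; rho = 0.929, exact p = 0.00223, adjusted p = 0.0804; r = 0.830 without replicates 2 and 8). Among all pairs of detected genes, 10.2% had an absolute r at least as large. On the authors' normalised values the pair did not pass (r = -0.081, adjusted p = 0.901, exact permutation test), and on log2 CPM it failed the threshold without replicate 2, 4, 6, 7 or 8, although r was then 0.906 to 0.969. Both genes followed the length slope, with r of 0.961 and 0.939 on log2 CPM.

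DUSP1 and DUSP6 gave r = 0.808 on log2 CPM (exact p = 0.0137, adjusted p = 0.123; rho = 0.833, exact p = 0.0154, adjusted p = 0.277; r = 0.687 without replicates 3 and 7). On the authors' normalised values they were the 1 pair that passed (r = 0.936, exact p = 0.00112, adjusted p = 0.0402; rho = 0.905, exact p = 0.00456, adjusted p = 0.164; r = 0.907 without replicates 3 and 7). With the length and GC trend removed the pair did not pass (r = 0.9065, adjusted p = 0.0848, exact permutation test). Both genes also followed the length slope on the normalised values, with r of 0.7855 for DUSP1 and 0.822 for DUSP6. On that scale 2.42% of all pairs of detected genes had an absolute r at least as large, 20 of the 36 pairs were positive, and the median was 0.22 against 0.00425 over all pairs. SPRY1 and SPRY4 gave r = -0.26 on log2 CPM (exact p = 0.535, adjusted p = 0.713; rho = -0.36, exact p = 0.389, adjusted p = 0.700; r = 0.05 without replicates 1 and 5). No batch, date or lane was labelled by which these relations could be split.

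The 3 detected genes most like each of the 9 were taken by Pearson's r of the authors' normalised values over the 8 libraries, as a description. These points share libraries, depth and the length slope. Taking the top 3 of 11979 genes over 8 points also favours high r values, which do not show a shared function. DUSP6 was most like EGR1 (r = 0.978) and FOS (r = 0.970), both immediate early transcription factors induced through ERK, with ANGPTL2 between them (r = 0.972). EGR1 had 104, 98.6, 204, 222, 69.4, 131, 35.3 and 20.1 CPM in replicates 1 to 8, high in 3 and 4 and low in 7 and 8 as DUSP6 was. On log2 CPM the r values with DUSP6 were 0.973 for EGR1 and 0.967 for FOS. Other detected genes known to be induced by ERK output were mixed on the normalised values. With DUSP6, IER3, EPHA2 and ETV5 gave r = 0.863, 0.8045 and 0.7895. FOSL1, ETV4, CCND1, EPHA4 and PHLDA1 gave 0.34, 0.33, 0.13, -0.054 and -0.56. This ranking depended on the scale. On log2 CPM, IER3, EPHA2 and ETV5 gave -0.096, 0.13 and 0.92 with DUSP6. There FOSL1, ETV4, CCND1, EPHA4 and PHLDA1 gave -0.49, -0.43, 0.16, 0.81 and 0.65.

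DUSP5 was most like HES1 (r = 0.965), a target of Notch, the stress gene GADD45B (r = 0.962) and the immediate early gene IER2 (r = 0.948). HES1 had 28.6, 78.5, 50.1, 62.6, 85.7, 80.4, 22.5 and 23.2 CPM in replicates 1 to 8, with the same 3 low libraries as DUSP5, namely 1, 7 and 8. SPRY4 was most like ZNF614 (r = 0.991), ERRFI1 (r = 0.976), a feedback inhibitor of the EGF receptor, and FARS2 (r = 0.973). ERRFI1 had 266, 189, 240, 277, 300.5, 312, 235 and 135 CPM, highest in 6 and 5 and lowest in 8.

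DUSP1 was most like CCDC132, STX10 and ITGBL1 (r = 0.978, 0.967 and 0.965), and 26 genes were closer to it than DUSP6. SPRY1 was most like ERAP2, FAM124B and PPM1M (0.961, 0.952 and 0.946), and SPRY2 was most like CCNL1, LOC440434 and GDPD5 (0.966, 0.948 and 0.934). For DUSP4 the closest were NARFL, USP7 and PFN2 (0.963, 0.960 and 0.958). For SPRED1 they were C12orf29, MKI67IP and SET (0.997, 0.992 and 0.990), and for SPRED2 they were EMD, FAM13B and DBNDD2 (0.978, 0.974 and 0.974). For some of these the sign was the opposite on log2 CPM, for instance STX10 with DUSP1 (r = -0.28), FARS2 with SPRY4 (r = -0.35), GDPD5 with SPRY2 (r = -0.42) and EMD with SPRED2 (r = -0.90).

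Other genes of the pathway were taken from lists made by function. Among 8 further phosphatases of this class and Sprouty genes, 5 were detected, led by DUSP7 (13.3 ± 2.55 RPKM), DUSP16 (4.39 ± 0.943) and DUSP10 (2.23 ± 0.4885). DUSP2, DUSP9 and SPRY3 were below 1 CPM in at least 1 library, at means of 1.63, 0.230 and 0.900 CPM. With an intercept alone 0 of the 5 varied more than the trend (0 at an unadjusted p under 0.05, against 13.1% of all genes). With the length slope in the model DUSP7 did (edgeR adjusted p = 0.00541).

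All 12 genes of the Ras, RAF, MEK and ERK list were detected, led by MAP2K2 (MEK2; 48.7 ± 17.8 RPKM), MAPK3 (ERK1; 48.3 ± 17.3) and HRAS (46.2 ± 20.9). These levels lay between the means of DUSP5 and DUSP6. In the intercept-only fit HRAS (edgeR adjusted p = 0.0467) and BRAF (edgeR adjusted p = 0.00358) varied more than the trend, and with the slope in the model only MRAS did (edgeR adjusted p = 0.0244). All 10 receptor adaptors were detected, led by SHC1 (112 ± 6.06 RPKM), GRB2 (56.5 ± 4.03) and PTPN11 (36.6 ± 13.1). CBL was the 1 adaptor above the trend (edgeR adjusted p = 0.0284), and 0 of 10 were with the slope in the model.

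All 10 other inhibitors of the pathway were detected, led by PEBP1 (124 ± 21.4 RPKM), the repressor ERF (31.25 ± 9.31) and RASA1 (14.7 ± 3.66). Of these, 3 Ras inactivators varied more than the trend in the intercept-only fit: RASA2 (edgeR adjusted p = 5.32e-06), NF1 (edgeR adjusted p = 1.62e-04) and RASAL2 (edgeR adjusted p = 0.0340). All 3 were lowest in replicates 2 and 8, and 0 of 10 passed with the slope in the model. The 9 feedback genes thus went from 0 to 5 when the slope was added, and this list went from 3 to 0. Whether the lists differ was not tested.

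Among 11 genes known to be induced by ERK output, 10 were detected, led by IER3 (90.9 ± 10.5 RPKM), EPHA2 (51.75 ± 4.59) and FOSL1 (42.5 ± 9.37), while ETV1 had 0.294 CPM. FOS, EGR1 and CCND1 varied more than the trend with an intercept alone (edgeR adjusted p = 9.86e-21, 3.92e-10 and 0.0240), and FOSL1 joined them with the slope in the model (edgeR adjusted p = 5.88e-06). In the immediate early list, which shares FOS and EGR1 with the former, 7 of 7 were detected, led by JUN (99.9 ± 20.8 RPKM), IER2 (91.0 ± 22.9) and EGR1 (35.3 ± 23.3). Of these, FOS, FOSB and EGR1 passed with an intercept alone, and 6 of 7, all but JUN, passed with the slope in the model. Of the JNK and p38 kinases, families that include targets of DUSP1, 6 of 7 were detected, led by MAPK12 (32.9 ± 11.3 RPKM), MAPK14 (23.0 ± 2.45) and MAPK11 (16.7 ± 6.47). MAPK10 had 0.0556 CPM. In that list 0 genes varied more than the trend in either edgeR fit, and 2 of 6 had an unadjusted p under 0.05 with an intercept alone, against 13.1% of all genes.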

How the data were processed

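Polyadenylated RNA libraries of 8 hCMEC/D3 replicates were made with the TruSeq kit, per the labels' protocols. The submitters' processing notes list hg19, CASAVA 1.9, TopHat2 2.0.6 and HTSeq. The annotation, the parameters and the use of strand were not given in the sources used here. Per the file headers, the authors deposited raw counts for each of 23346 genes and CQN-normalised values, read here as log2, for 13962 genes. All 16 value columns were matched to samples by replicate number, with 0 left over.

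CPM used TMM-scaled library sizes (edgeR 4.0.16, R 4.3.3). RPKM is CPM per kilobase of the canonical GENCODE 44 transcript lifted to GRCh37, found for 11591 of 11980 detected genes (96.8%). Tables were fitted whole (edgeR, limma 3.58.1), with Benjamini-Hochberg adjustment over all genes and calls at 0.05. DESeq2 1.42.0 served in alternatives. Counts were also simulated with the length slope in the model and the dispersion of every gene set at the fitted trend. Of 200 genes raised 2-fold in 1 library, 163 were called, with 1 of the other genes. When none was changed, 0 of 11980 were called. Since no simulated gene was drawn off the trend, this does not cover the scatter of real genes around it. Intervals and floors of 3 read pairs cover counting error only.

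The 9 genes, the lists and the tests were chosen with earlier results of these data known. Named list genes are the 3 highest by RPKM, undetected genes where 5 or fewer, and those above the trend.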

Additional observations from a re-analysis of the deposited data

Results flagged for a closer look

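The normalised value of SPRY4 in replicate 8, 4.495 on the authors' log2 scale, lay far below the other 7 libraries, of which the lowest was 5.48. The gap was 54.6% of the whole range, above the 52.6% limit of Dixon's test for 8 values. This was the 1 value set apart among 18 sets of 8 (9 genes on 2 scales), and chance sets apart about 1 in 20 such sets. On CPM the same library was also the lowest, at 17.15, with a gap of 43.2% of the range. The cause was not tested.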

How the results depend on the processing

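Samples could not be paired between groups because there is only 1 group. The count of the 9 genes above the variation trend was 0 and became 6 with the DESeq2 fitted trend (2811 genes in all, against 558), 5 with the length slope as a covariate, and 0 to 1 without any one library. The count that followed the length slope was 5, and 2 to 6 without any one library. Over all genes 8719 followed it, and 4894 on CQN values. Of the 36 correlations, 1 passed, 0 with the length and GC trend removed, and 0 to 1 without any one library. The slope coefficient of DUSP4 was 0.01 and turned to -0.095 on CQN values, to -2.90e-04 without replicate 7 and to -0.015 without replicate 8, with a range of -0.015 to 0.041 without any one library. That of DUSP5 was -0.10 without replicate 8 and 0.16 without replicate 2, and that of SPRED1 turned to -0.027 on CQN values. The r of SPRED1 and SPRED2 turned to -0.081 on CQN values. The cause of these changes was not tested. Of the 36 level differences, 34 to 36 passed under every alternative. Summed exon lengths lowered the RPKM of DUSP4, SPRY1, SPRY2 and SPRED2 by more than their SD. The largest counting error was 4.87%. Total counts ran against the length slope. As a second covariate beside it they left the count above the trend at 5, and their part in the other results was not tested.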
